A study of Mus musculus with 24 samples.

Results

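The genes described here are 49 genes of mitosis and of the G2/M transition, among 51912 genes in the table of normalized counts. They were chosen by name, by their known roles, and each of the 49 was found and passed the filter on low values. RNA was sequenced from 24 manually dissected archicortex (ARK) samples of mouse embryos, the dorsomedial telencephalon that holds the cortical hem (CH) and the dentate neuroepithelium (DNE), on a mixed C57BL/6J;MF1 background. The question put to the samples was what changes when the transcription factor SOX9 is deleted from complementary regions of the ARK. At E13.5, 4 mutants (Sox9fl/fl;Sox1Cre, libraries A1 to A4) were set against 4 controls (Sox9+/+;Sox1Cre, A5 to A8), and 4 mutants (Sox9fl/fl;NestinCre, A17 to A20) against 4 controls (Sox9+/+;NestinCre, A21 to A24). At E12.5, 4 mutants (Sox9fl/fl;Sox1Cre, A9 to A12) were set against 4 controls (Sox9+/+;Sox1Cre, A13 to A16). Every group carries a Cre allele, so no library is free of Cre. Sox1Cre is a knock-in at the Sox1 locus, and its early activity takes in all of the neural plate. NestinCre acts later, so that at E13.5 it has come to cover the DNE while largely sparing the CH. Between 16163560 and 49445219 reads per library were assigned to genes (median 23016925). The labels name no litter or pooling, so p-values measure the spread between these samples.

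Mitosis is driven by cyclin-dependent kinase 1 (CDK1) with cyclins A and B, which CDC25 phosphatases switch on at the end of G2. Aurora and Polo kinases and kinesins then build the spindle, the checkpoint holds anaphase back until kinetochores are attached, and the anaphase-promoting complex (APC/C) ends mitosis by degrading cyclin B and securin. In the embryonic cortex the dividing cells are mainly radial glia, whose nuclei reach the ventricular surface to divide, and intermediate progenitors, so in whole tissue these transcripts follow cycling cells. Many genes of this programme carry in their promoters CCAAT boxes, bound by NF-Y, and a cell cycle homology region (CHR), bound by the DREAM and MuvB complexes.

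The letters of these elements were more frequent in the members with a promoter window than in protein-coding genes, although the members had been chosen without regard to sequence. Each element was counted separately, and their order and spacing were not. RefSeq promoter windows of GRCm38.p6, from 250 bases before to 50 bases after the start, were matched for 41 of the 49. The CHR letters TTTGAA, on either strand, were in the windows of 30 of the 41 genes (73.2%), against 3230 of 17491 protein-coding genes (18.5%), and the variant TTCGAA was in 4 (9.76% against 2.13%). CCAAT, on either strand, was in 30 of 41 (73.2% against 42.3%), with 2 or more copies in 20 (48.8% against 14.6%). The E2F-type letters GGCGGGA or, as a variant, GGCGCGA were in 12 of 41 (29.3% against 20.4%), while 15 of 31 genes of S phase held them (48.4%) and 4 of those 31 held TTTGAA (12.9%). CCAAT was also in 19 of 31 S phase genes (61.3%, with 2 or more in 38.7%) and in 54 of 87 other mitosis genes (62.1%). A match is a description of letters and not a bound site. Sequences upstream of the start are shown in lower case for 5 genes, on which the results below turn or which hold both elements. Capitals mark CHR letters (TTTGAA on either strand, and the palindrome TTCGAA) and CCAAT on either strand. They are Top2a (chr11:99024190-99024439, minus strand), Ccnb2 (chr9:70421555-70421804, minus), Kif11 (chr19:37376132-37376381, plus), Mki67 (chr7:135716380-135716629, minus) and Cdc25b (chr2:131186698-131186947, plus), each 250 bases with no annotated exon.
Top2a: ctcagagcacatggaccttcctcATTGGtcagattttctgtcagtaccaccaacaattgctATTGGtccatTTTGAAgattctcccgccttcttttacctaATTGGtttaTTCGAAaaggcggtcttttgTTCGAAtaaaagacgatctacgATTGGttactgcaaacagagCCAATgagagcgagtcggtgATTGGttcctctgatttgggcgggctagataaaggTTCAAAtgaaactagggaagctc
Ccnb2: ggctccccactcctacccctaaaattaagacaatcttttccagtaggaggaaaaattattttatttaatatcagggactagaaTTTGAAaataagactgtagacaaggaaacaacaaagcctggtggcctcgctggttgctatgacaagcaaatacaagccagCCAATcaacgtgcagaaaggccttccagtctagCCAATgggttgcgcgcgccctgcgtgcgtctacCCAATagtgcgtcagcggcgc
Kif11: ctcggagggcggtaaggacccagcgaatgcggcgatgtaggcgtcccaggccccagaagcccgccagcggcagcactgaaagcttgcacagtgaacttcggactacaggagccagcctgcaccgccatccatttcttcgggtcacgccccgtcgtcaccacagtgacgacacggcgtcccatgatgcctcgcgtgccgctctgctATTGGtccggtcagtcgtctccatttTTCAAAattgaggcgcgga
Mki67: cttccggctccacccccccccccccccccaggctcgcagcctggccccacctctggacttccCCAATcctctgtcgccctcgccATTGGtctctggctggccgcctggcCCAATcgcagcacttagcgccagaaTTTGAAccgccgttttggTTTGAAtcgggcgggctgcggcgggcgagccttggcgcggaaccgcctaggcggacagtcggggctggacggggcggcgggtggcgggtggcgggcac
Cdc25b: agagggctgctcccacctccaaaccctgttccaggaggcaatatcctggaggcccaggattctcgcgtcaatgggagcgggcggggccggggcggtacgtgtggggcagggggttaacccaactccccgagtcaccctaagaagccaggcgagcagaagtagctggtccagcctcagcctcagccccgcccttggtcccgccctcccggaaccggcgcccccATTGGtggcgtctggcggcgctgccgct
The Top2a stretch held 6 CCAAT boxes and 4 CHR matches, and Ccnb2 held 3 CCAAT boxes with starts at -87, -54 and -21. The only CHR match of Ccnb2 lay upstream of these boxes, at -167. These positions count from the RefSeq start, which can lie some bases away from the gene positions given further below. Kif11 held a CCAAT box at -45 followed by a CHR match at -19. Mki67 held 3 CCAAT boxes and 2 CHR matches. Cdc25b held 1 CCAAT box and no CHR match in this stretch.

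Mean levels over 24 libraries ran from 649 normalized counts (Kif18a) to 17113 (Top2a), with a median of 2286. Levels between genes are compared here per kilobase of exon, as the mean normalized count over 24 libraries, with all annotated exons of a gene merged. Merged exons can be longer than the longest transcript, as for Ndc80 (6493 against 3847 bases), so the order of genes depends in part on annotation. The highest was Top2a, the topoisomerase that untangles sister chromatids, at 1899 per kb, followed by Cdc20, the mitotic activator of the APC/C, at 1788, and cyclin A2 (Ccna2) at 1513. The ubiquitin-conjugating enzyme Ube2c stood at 1424, Plk1 (Polo-like kinase) at 1392 and Tpx2, which activates Aurora A on the spindle, at 1275. The lowest were the kinesins Kif18a, at 66.0, and Kif20b, at 120, with the kinetochore gene Ndc80 at 138 and the phosphatase gene Cdc25c at 152. The median over the 49 was 481 per kb. The entry genes therefore spanned a wide range, with Ccnb1 and Ccnb2 (cyclins B1 and B2) at 1101 and 1046 per kb, Cdk1 at 665 and Cdc25b at 434. Of the 49 genes, 14 have exons that overlap a gene on the opposite strand, Cdc25b (with Spef1) and Plk1 (with Gm44985) among them. With no strand setting stated, reads from the shared stretches cannot be told apart.

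The targeted gene was checked first. Sox9 stood at 4391, 5265, 4237 and 4194 normalized counts in the E12.5 controls and at 2785, 1733, 2593 and 1928 in the E12.5 mutants. In the Sox1Cre line at E13.5 it stood at 5218, 5912, 5450 and 5731 in controls and at 3563, 2828, 3384 and 3677 in mutants. In the NestinCre line it stood at 5636, 4979, 4586 and 5406 in controls and at 3089, 2997, 3083 and 3369 in mutants. Every mutant lay below every control of its set, with log2 changes of -1.02 (adjusted p = 6.28e-05), -0.74 (adjusted p = 0.0021) and -0.71 (adjusted p = 0.0297; limma, Benjamini-Hochberg over 16454 genes). Sox9 thus went against no label, although counts over the whole gene include any part that the deletion leaves. The tissue was rich in radial glia transcripts, with Vim, an intermediate filament of these cells, at a mean of 33592 normalized counts, whereas 5 of 9 ventral telencephalon markers did not pass the filter and the most abundant, Lhx6, averaged 24.8. One library stood apart in the latter, A18 of the NestinCre mutants, where the 9 ventral markers summed to 697 normalized counts, against 46.4 to 93.2 in A17, A19 and A20 and at most 117 in any other library. In the NestinCre set the 4 tested ventral markers had log2 differences of 0.16 to 2.65, none past the threshold, and the differences of members named in that set are also given without A18 below. Choroid plexus RNA was present in all libraries and varied widely, its 8 markers summing to between 8168 (A1) and 89757 (A3) normalized counts.

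Taking the 49 genes together, their level differed little between groups. The mean of log2(normalized count + 1) over the 49 was 11.35, 11.32, 11.30 and 11.29 in the E12.5 controls and 11.20, 11.31, 11.11 and 11.35 in the E12.5 mutants. In the Sox1Cre line at E13.5 it was 11.33, 11.29, 11.13 and 11.08 in controls and 11.32, 11.14, 11.15 and 11.08 in mutants. In the NestinCre line it was 11.28, 11.35, 11.40 and 11.26 in controls and 11.31, 11.38, 11.29 and 11.24 in mutants. Mutants and controls overlapped in every set, and the group means lay between 11.17 ± 0.10 (SD, n = 4; E13.5 Sox1Cre mutants) and 11.32 ± 0.06 (SD, n = 4; E13.5 NestinCre controls). The tightest group was the E12.5 controls (SD 0.02), and the widest was the E13.5 Sox1Cre controls (SD 0.12). No test was made of this level, since the genes were chosen with earlier results known. In bulk tissue, fewer dividing cells and less RNA per dividing cell cannot be told apart.

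**Figure D1:**
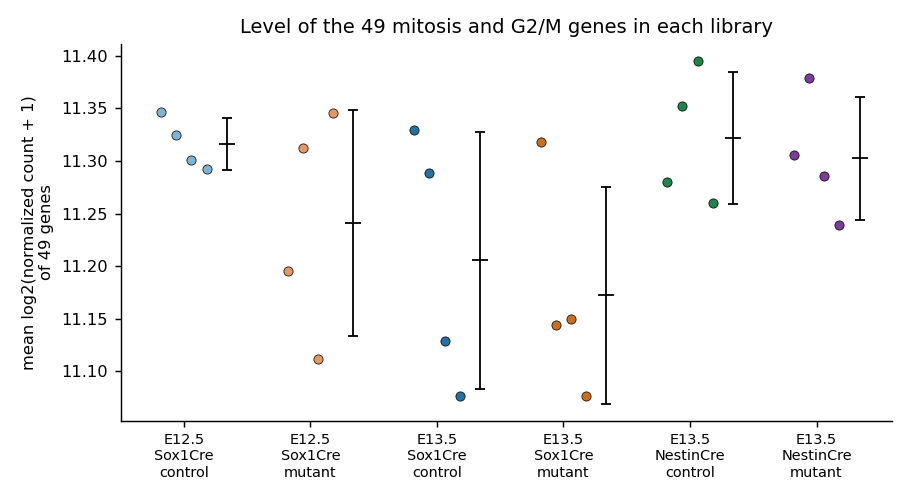
Mean of log2(normalized count + 1) over the 49 mitosis and G2/M genes (vertical axis, which does not start at 0) in each of 24 libraries, by group; points are libraries and bars are the group mean ± SD (n = 4). Mutants and controls overlap in all 3 sets, and libraries range from 11.08 to 11.40.

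Differences between libraries of the same group were shared by most of the 49 genes. After the group mean was taken from each gene, the median correlation over 1176 pairs of genes was 0.66 across 24 libraries, 92.4% of pairs were positive, and 29 genes correlated above 0.8 with the mean of the other 48. All genes share the libraries and their size factors, so these values describe the libraries and carry no p. Birc5, the survivin of the chromosomal passenger complex, followed the rest most closely (r = 0.96), with Top2a and Ube2c at 0.94 and the cyclin gene Ccnb1 at 0.91. At the other end stood Mki67, which encodes the Ki-67 coat of mitotic chromosomes (r = -0.13), and Pttg1, which encodes securin (r = -0.04). Cenpf, a kinetochore gene, reached 0.20, the condensin gene Smc4 0.28 and the kinetochore motor gene Cenpe 0.37. The spread within groups of Mki67 (SD 0.22 on the log2 scale) and Pttg1 (SD 0.20) was also larger than the median over the 49 genes (0.11). Low correlation and wide spread did not always go together. The widest spread was that of the kinetochore gene Spc24 (SD 0.25), which had r = 0.65, while Cenpf (SD 0.09) and Smc4 (SD 0.10) lay below the median.

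**Figure D2:**
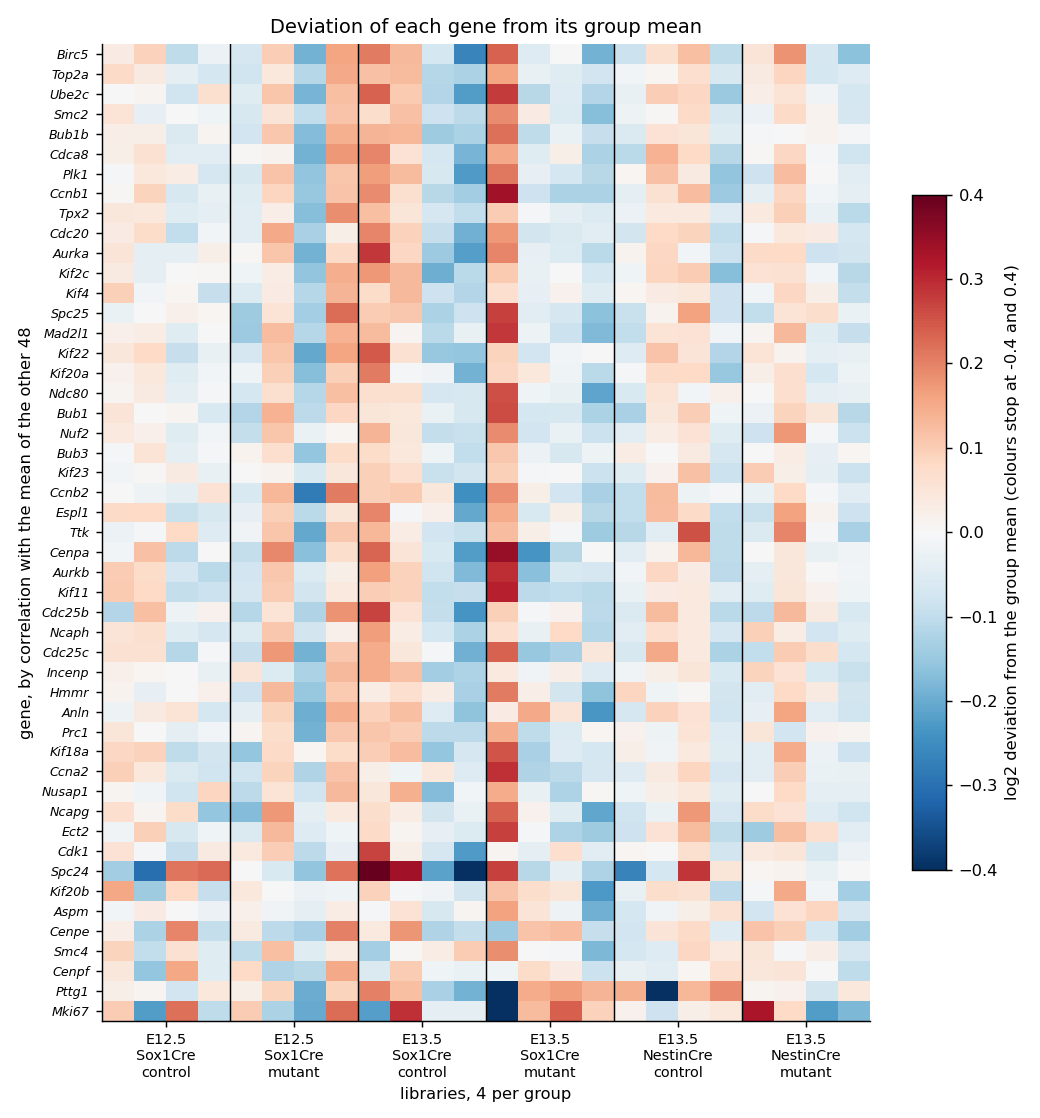
Log2 deviation of each of the 49 genes (rows, ordered by correlation with the mean of the other 48) from its group mean in each library (columns, 4 per group). Most rows change colour together, as in the first E13.5 Sox1Cre mutant library, while Pttg1 and Mki67 at the bottom do not follow.

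Library A1 stood out among the E13.5 Sox1Cre mutants. It had the highest level of the 49 genes (11.32, against 11.08 to 11.15 in A2 to A4) and the lowest choroid plexus level, a mean log2 of 8.14 over 8 markers against 10.72 to 10.99. The summed markers of meninges (17754 against 29428 to 43034 normalized counts), endothelium and pericytes (6025 against 11782 to 15257) and microglia (956 against 1436 to 2136) were also lowest in A1 within its group. So were those of the cortical hem (15924 against 22448 to 34781), unlike those of radial glia, intermediate progenitors, neurons, Cajal-Retzius cells and erythroid cells. A1 also differed over all genes. Chi-square on reads over its degrees of freedom was 58.5 to 78.0 for A1 paired with A2 to A4. It was 8.24 to 34.2 for all other pairs of libraries within groups. Ttr, the transthyretin of choroid plexus epithelium, stood at 5266 normalized counts in A1 and at 55499, 70416 and 52673 in the other 3. Across all 24 libraries, as deviations from group means, the level of the 49 genes followed that of 40 genes of S phase and DNA replication (r = 0.93, rho = 0.91) and of 104 other mitosis genes (r = 0.96, rho = 0.96). It ran against the choroid plexus markers (r = -0.78, rho = -0.82, and r = -0.76 without A1 and A18) and the Cajal-Retzius markers (r = -0.63, rho = -0.57, and r = -0.51 without A4 and A5). The microglia markers had r = -0.54 (-0.45 without A1 and A2) and those of endothelium and pericytes r = -0.43 (-0.15 without A1 and A10). Against the radial glia markers it had r = 0.02 and rho = 0.01, and r = -0.23 without A12 and A18. Against the intermediate progenitor markers it had r = 0.01 and rho = 0.05, and r = 0.19 without A2 and A5. These are descriptions from 18 lists in one set of libraries, without a p, and the part of dissection in them was not tested.

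**Figure D3:**
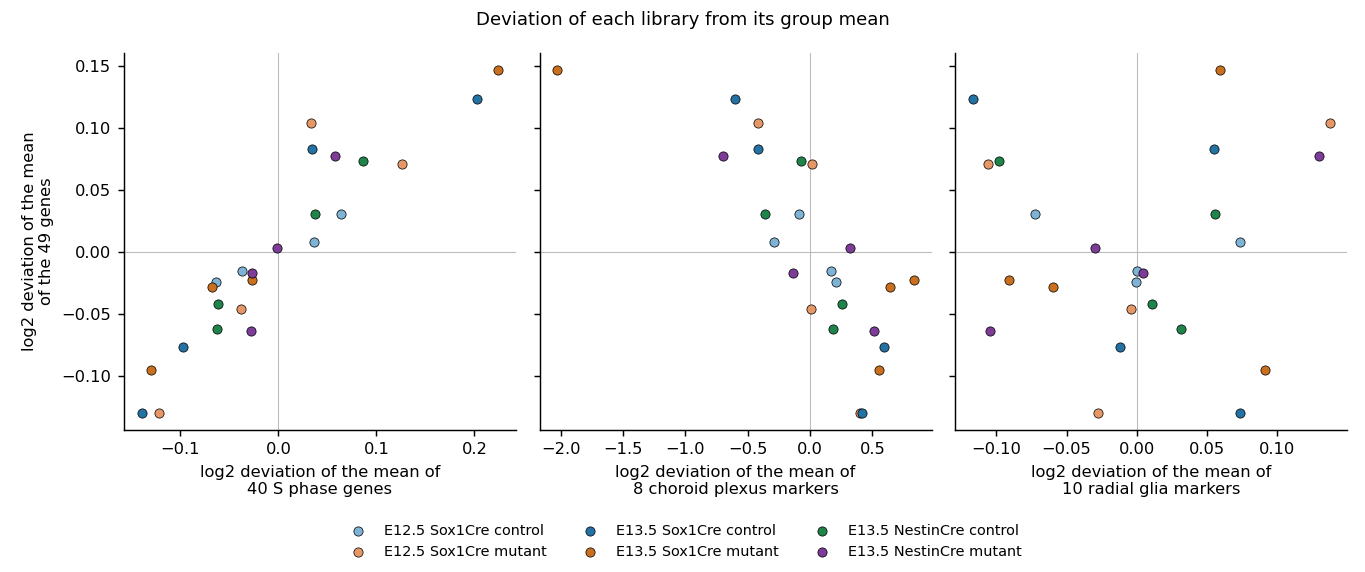
Deviation of each library's mean log2 level of the 49 genes from its group mean (vertical axis), against the same deviation for 40 S phase genes, 8 choroid plexus markers and 10 radial glia markers; each point is 1 of 24 libraries, coloured by group. The 49 genes follow the S phase genes (r = 0.93), run against the choroid plexus markers (r = -0.78) and have r = 0.02 with the radial glia markers (-0.23 without A12 and A18).

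For the loss of Sox9, 0 of the 49 genes passed the threshold in each of the 3 sets (limma, Benjamini-Hochberg over 16454 genes). In the E13.5 Sox1Cre set, where 0.924% of all genes were called, 3 members had an unadjusted p under 0.05 (11.7% of all genes), the median log2 change was -0.05 (all genes: 0.00) and values ran from -0.25 to 0.28. In the E13.5 NestinCre set (0.0669% called) 2 members had an unadjusted p under 0.05 (6.47% of all genes), with a median of -0.02 (all genes: 0.00), and of -0.04 without A18, where 0 members were also called, 2 had an unadjusted p under 0.05 (5.51% of all genes) and 36 of 49 were below 0 (8140 of 16454 genes). In the E12.5 set (0.723% called) 7 had (2217 of 16454 genes), each of them lower in mutants, with a median of -0.09 (all genes: 0.00) and 40 of 49 below 0 (49.6% of all genes). The E13.5 Sox1Cre set had 39 of 49 below 0 (51.4% of all genes) and the NestinCre set 30 of 49 (50.7%). Beside the members at E12.5, 38 of 40 S phase genes had values below 0 (median -0.13), 10 of 10 cortical hem markers values above 0 (median 0.20) and 6 of 8 choroid plexus markers values above 0 (median 0.40). Past the threshold were 1 S phase gene, lower, and 1 of 8 intermediate progenitor markers, higher (values of the 8 from -0.32 to 1.71). At E13.5 in the Sox1Cre set 31 of 40 S phase genes (median -0.07), 8 of 9 endothelium and pericyte markers (-0.35) and 7 of 8 meninges markers (-0.24) had values below 0, and 10 of 12 neuron markers values above 0 (0.20). In the NestinCre set 30 of 40 S phase genes (-0.04), 9 of 9 endothelium and pericyte markers (-0.15), 7 of 7 microglia markers (-0.19) and 7 of 8 meninges markers (-0.14) had values below 0. So had 6 of 8 choroid plexus markers there (-0.22), with 2 above 0. None of these E13.5 S phase genes and markers passed the threshold, whereas 1 of 10 radial glia and 1 of 8 Cajal-Retzius markers were called lower in the Sox1Cre set, and the part of these lists in the members' differences was not tested. edgeR and DESeq2 on the recovered reads also called 0 members in each set. The 95% interval lay within 0.5 on either side of 0 for 47, 48 and 47 of the 49 genes, so that larger changes fall outside the intervals of these members, whereas changes of the size of the median half-width (0.16) were not resolved. Without A1, Kif11, the kinesin that pushes spindle poles apart, was called at E13.5 in the Sox1Cre set, at -0.22 (adjusted p = 0.0444, limma), where 3.1% of all genes were called. The median of that set was -0.09 without A1 and 0.0028 without A5, and that of the NestinCre set turned sign in 3 of 8 fits with 1 library left out. Sex was not balanced, as read from Xist, the RNA of the inactive X. Xist was high in 2 of 4 mutants and 4 of 4 controls at E12.5. At E13.5 it was high in 2 of 4 mutants of each line, 0 of 4 Sox1Cre controls and 1 of 4 NestinCre controls. With log2 Xist as a covariate, 0 members were called in each set (0.62%, 0.0122% and 0.535% of all genes for E13.5 Sox1Cre, NestinCre and E12.5).

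**Figure D4:**
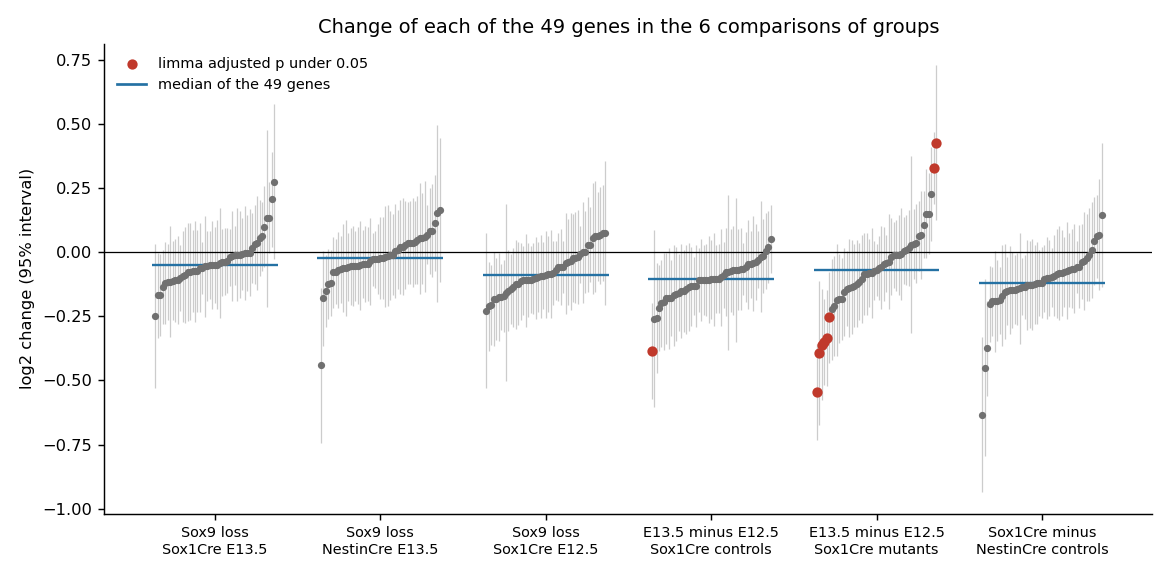
Log2 change of each of the 49 genes (points, sorted within each comparison) with its 95% interval (grey lines) in 6 comparisons between groups; red points passed an adjusted p of 0.05 in limma and blue lines are medians. Red points appear between E12.5 and E13.5, 1 in controls and 8 in mutants, and in none of the other 4 comparisons plotted.

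The main genes of the programme show the size of what was measured. Cdk1 stood at 3990, 3358, 3154 and 2829 normalized counts in the E13.5 Sox1Cre controls and at 3071, 2974, 3199 and 2964 in mutants. The groups overlapped, and the log2 difference was -0.12 ± 0.07 (SE; 95% interval -0.26 to 0.03; limma, adjusted p = 0.56). With 1 library left out it ran from -0.19 (without A8) to -0.03. For Cdk1 the difference was -0.07 in the NestinCre set and 0.03 at E12.5. Ccnb1 had differences of -0.08, 0.02 and -0.03 in the 3 sets and Top2a of -0.14, -0.05 and -0.11, none past the threshold. The first of these for Ccnb1 ran from -0.19 to -0.01 with 1 library left out. Without A18 the NestinCre differences were -0.08 for Cdk1, -0.01 for Ccnb1, -0.08 for Top2a and 0.05 for Aspm. Aspm, the spindle pole protein whose loss reduces cortical size, had differences of -0.01 (interval -0.13 to 0.10), 0.07 and -0.07. At E12.5 all 4 mutants lay below all 4 controls in Aspm and in Bub1, a checkpoint kinase, where 5.93% of all genes had mutants below controls without overlap. Bub1 was at 1797, 2148, 1811 and 2065 in mutants and at 2329, 2244, 2266 and 2154 in controls, a log2 difference of -0.21 (adjusted p = 0.227, limma). The condensin gene Ncapg had a difference of -0.21 (adjusted p = 0.271, limma) in the same set. With array weights Bub1 (-0.24, adjusted p = 0.0277), Ncapg (-0.26, adjusted p = 0.0478) and Smc4 (-0.20, adjusted p = 0.0441) were called at E12.5 by limma, 6.12% of the members where 3.51% of all genes were.

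Mki67 spread more widely than the other main genes. It stood at 9039, 12871, 10254 and 10268 normalized counts in the E13.5 Sox1Cre controls and at 9266, 13925, 15042 and 13581 in mutants, a log2 difference of 0.28 (interval -0.03 to 0.58; limma, adjusted p = 0.487). Without A1, the lowest mutant, it was 0.43 (adjusted p = 0.0754), and with array weights it was 0.43 and passed (adjusted p = 0.0491). In the NestinCre line it stood at 16518, 15404, 16604 and 16819 in controls and at 15064, 12706, 10289 and 10617 in mutants. There every mutant lay below every control, as for Cenpf and Smc4, where 2.8% of all genes did so, but the difference of -0.44 (interval -0.74 to -0.14) had an adjusted p of 0.512 in limma (-0.47 without A18). At E12.5 the difference was -0.23 (adjusted p = 0.518, limma). Cenpe had differences of 0.21 (interval 0.02 to 0.39; adjusted p = 0.357) and -0.18 (adjusted p = 0.791) in the Sox1Cre and NestinCre sets at E13.5. Pttg1 had -0.25 (adjusted p = 0.511) and 0.17 (adjusted p = 0.968), the first of which was -0.10 without A1 and the second 0.01 without A22 (limma). Without A18 the NestinCre differences were -0.21 for Cenpe and 0.16 for Pttg1. The difference between the Cre lines, tested itself, was 0.72 for Mki67 (interval 0.29 to 1.15; adjusted p = 0.242), 0.39 for Cenpe (adjusted p = 0.309) and -0.41 for Pttg1 (adjusted p = 0.578), all by limma, the last of which was -0.26 without A1 and without A22. Of the 49 genes 0 passed in this test (5 at an unadjusted p under 0.05, as were 8.27% of all genes; edgeR and DESeq2 0; 0.0425% of all genes called), and without A1 Mki67 passed it at 0.87 (adjusted p = 0.0248, limma), with 0.875% of all genes called. Without A18 it was 0.74 (adjusted p = 0.314, limma). The difference between ages also called 0 of 49 (4 at an unadjusted p under 0.05, as were 7.4% of all genes; edgeR and DESeq2 0), and 0% of all genes, with 0.50 for Mki67, 0.39 for Cenpe and -0.32 for Pttg1 (-0.17 without A1). Cdk1, Ccnb1, Top2a and Aspm had differences of -0.05, -0.10, -0.09 and -0.08 between Cre lines and of -0.15, -0.04, -0.03 and 0.06 between ages, none past the threshold.

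More members were called between ages, in comparisons that share their libraries with those of the loss of Sox9 in the Sox1Cre line. In the Sox1Cre mutants, 6 were lower and 2 higher at E13.5 than at E12.5 (limma), 16.3% of the members where 25.9% of all genes tested were called, 12.1% lower and 13.8% higher. The members' share lay below that of all genes, 13 members had an unadjusted p under 0.05 (37.9% of all genes), and their median change was -0.07 (all genes: -0.01). Lower genes were Cdc25b, Ccnb2, Plk1, Birc5, Espl1 (separase, the protease that cuts cohesin) and Pttg1 (its inhibitor securin). Higher genes were Mki67 and Smc4. By role, 2 of 6 CDK1-cyclin genes, 2 of 4 anaphase genes, 1 of 2 spindle pole kinases and 1 of 4 passenger complex genes fell, 2 of 6 chromosome structure genes rose, and 0 of 5 checkpoint genes, 0 of 7 kinetochore genes, 0 of 8 kinesins, 0 of 4 spindle proteins and 0 of 3 cytokinesis genes were called by limma.

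Cdc25b (ENSMUSG00000027330, chr2:131186949-131198497), whose product activates CDK1 at G2/M, showed the largest fall. It stood at 1837, 2061, 1829 and 2247 normalized counts in the E12.5 mutants and at 1452, 1351, 1378 and 1266 in the E13.5 mutants. The groups did not overlap, and the log2 change was -0.55 ± 0.09 (SE), or 31.5% lower (limma, adjusted p = 0.000383; exact permutation p = 0.0286, the smallest that 4 against 4 allows). Espl1 (chr15:102296266-102324357) stood at 2044, 2233, 1942 and 2162 in the E12.5 mutants and at 1822, 1575, 1671 and 1520 in the E13.5 mutants. It too did not overlap, and it fell by 0.35 on the log2 scale (adjusted p = 0.0037, limma). Ccnb2 (chr9:70407692-70421547) stood at 1731, 1981, 1486 and 2083 and then at 1625, 1454, 1359 and 1308. Its groups overlapped, A1 lying above A11, and it fell by 0.33 (adjusted p = 0.0102, limma). Birc5 (chr11:117849251-117855743) stood at 1372, 1538, 1260 and 1603 and then at 1320, 1079, 1121 and 983. It overlapped likewise, and it fell by 0.36 (adjusted p = 0.0145, limma). Pttg1 (chr11:43420250-43426251) stood at 1090, 1141, 934 and 1141 and then at 597, 906, 917 and 899. The groups did not overlap, as in 4 members in all (23.1% of all genes), and the change was -0.39 (adjusted p = 0.0372, limma). Without A1, the lowest library, it was -0.24 (adjusted p = 0.15, limma). Plk1 fell by 0.25 (adjusted p = 0.0334, limma).

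Smc4 (chr3:69004738-69034623), a core subunit of condensin, stood at 5040, 5878, 5229 and 5515 normalized counts in the E12.5 mutants and at 7727, 6782, 6763 and 6001 in the E13.5 mutants. The groups did not overlap, and it rose by 0.33 ± 0.07 (SE) on the log2 scale, or 25.6% (limma, adjusted p = 0.00168). Its partner Smc2 was not called. Mki67 (chr7:135689784-135716361) stood at 10171, 8679, 8247 and 11069 and then at 9266, 13925, 15042 and 13581. Its groups overlapped through A1, and it rose by 0.43 ± 0.15 (SE; adjusted p = 0.035, limma), a call lost without any one of A2, A3, A4, A10 or A11 (adjusted p from 0.0757 to 0.108). Cdk1, Ccnb1, Top2a and Aspm were not called, with changes of -0.14, -0.14, -0.05 and -0.07. Without A1, 15 members were called (12 lower, 3 higher), 30.6% where 23.6% of all genes were called in that fit, Ccnb1 among them at -0.25 (adjusted p = 0.0223, limma), with Cdc20, Cdc25c, Cenpa, Kif11, Mad2l1 and Ube2c also lower and Cenpe higher. Without A10 or without A12, 5 were called (10.2%, where 22.4% and 17.9% of all genes were). The calls of Plk1 were lost without any one of A2, A3, A4, A10 or A12 (adjusted p from 0.0597 to 0.108), those of Birc5 without A4 or A12 (0.0584 and 0.0594), that of Ccnb2 without A12 (0.0504), and that of Pttg1 also without A9, A10 or A12 (0.0711 to 0.0964), all by limma. Cdc25b, Espl1 and Smc4 were called without each of the 8 libraries in turn. With the libraries of the comparison alone, these 3 were also the only members called (13% of all genes called), so Birc5, Ccnb2, Plk1, Pttg1 and Mki67 lost their calls. Across the 49 members, the change in mutants had a correlation of -0.53 with the GC content of the longest transcript (-0.10 over 16411 genes) and of 0.44 with its log2 length (0.12), as a description across genes that share libraries. The same values were -0.43 and 0.17 for age in controls, 0.43 and -0.40 for the loss of Sox9 at E12.5, -0.24 and 0.32 at E13.5 in the Sox1Cre set and 0.22 and -0.44 in the NestinCre set.

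**Figure D5:**
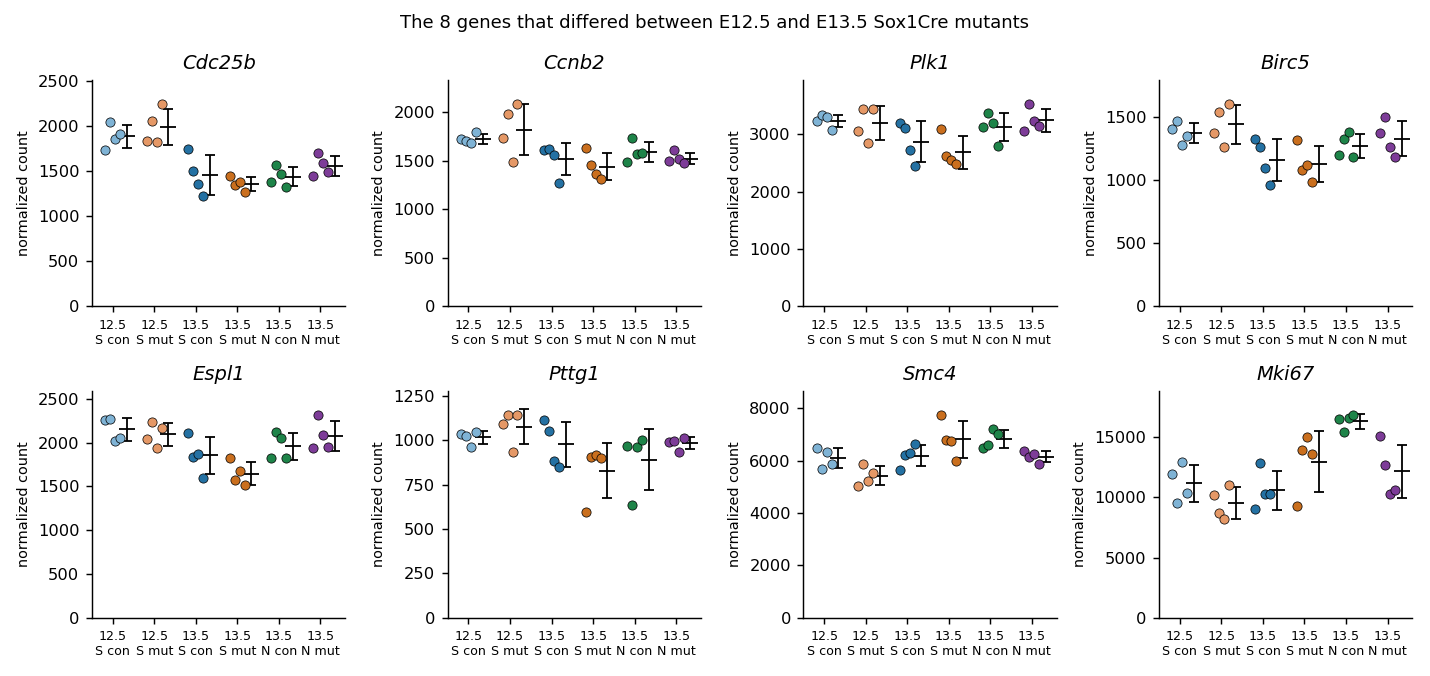
Normalized count (vertical axes, from 0) of the 8 genes called between E12.5 and E13.5 Sox1Cre mutants, in each library of the 6 groups (S, Sox1Cre; N, NestinCre; con, control; mut, mutant); points are libraries and bars are the mean ± SD (n = 4). In the Sox1Cre mutants, Cdc25b lies between 1829 and 2247 at E12.5 and between 1266 and 1452 at E13.5, and Smc4 lies higher at E13.5 than at E12.5.

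In the Sox1Cre controls the same step in age called 1 of the 49 genes (2.04%, where 11.5% of all genes were called, 5.17% as lower), again Cdc25b. It stood at 1738, 2049, 1861 and 1910 normalized counts at E12.5 and at 1745, 1505, 1354 and 1227 at E13.5. The groups overlapped through A5 and A13, and Cdc25b fell by 0.38 ± 0.09 (SE), or 23.3% (limma, adjusted p = 0.0105). Of the 49 changes 46 were below 0 (50.3% of all genes), with a median of -0.11 (all genes: 0.00), and 9 had an unadjusted p under 0.05 (26.7% of all genes). In Ccna2, Ccnb2, Ndc80 and Aspm the E13.5 controls lay below the E12.5 controls without overlap (8.74% of all genes). Without A5, 6 members were called, each lower, and these were Cdc25b, Birc5, Espl1, Aurka, Cdca8 and Kif20a (log2 change from -0.47 to -0.25), 12.2% where 16% of all genes were called in that fit. Smc4 had a difference of 0.02 and Mki67 of -0.08 in controls, and Cdk1, Ccnb1, Top2a and Aspm of 0.01, -0.10, -0.01 and -0.13. The E12.5 controls were all 4 high in Xist, the RNA of the inactive X (3660 to 4451 normalized counts), and the E13.5 controls all 4 near 0 (1.07 to 2.26), so in the controls age and sex cannot be told apart. With log2 Xist as a covariate, the difference in Cdc25b was -0.36 (adjusted p = 0.163, limma), and 0 of the 49 members and 0 of all 16454 genes were called. In the mutants 2 of 4 libraries were high in Xist at each age, and with the covariate 8 members were called (16.3%, where 26% of all genes were). The difference between mutants and controls in the age step of Cdc25b is the difference of the loss of Sox9 between ages, which was -0.16 (adjusted p = 0.823, limma). That difference holds the same imbalance in Xist, and with the covariate 0 members were called for it (0% of all genes).

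Other cell types changed with age beside these genes. Of 12 neuron markers 10 rose in mutants and 9 in controls (median log2 change 1.08 and 0.86), with Map2, a dendrite microtubule protein, at a mean of 11979 and then 14609 normalized counts in mutants. Of 10 cortical hem markers 8 fell in mutants and 6 in controls, with Wnt8b, a hem ligand, at 12774 and then 5749 in mutants. Of 10 erythroid markers 6 fell in mutants and 7 in controls, and 1 rose in mutants, with the embryonic globin Hbb-y at 84659 and then 29247 in mutants. Of 8 intermediate progenitor markers 2 rose in mutants and 3 in controls (median 0.36 and 0.31). Of 10 radial glia markers 4 rose and 3 fell in mutants, and 1 fell and 0 rose in controls (limma), and in mutants Vim went from 36710 to 28286. The choroid plexus markers had a median change of 0.48 in mutants (3 of 8 rose) and 0.91 in controls (0 of 8 called). The part of these shifts in the changes of the mitosis genes was not tested.

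Between the controls of the 2 Cre lines at E13.5, 0 of 49 members were called by limma (0.243% of all genes called; 12 members with an unadjusted p under 0.05, each lower in Sox1Cre controls, against 10% of all genes; edgeR 0), while DESeq2 on the recovered reads called 2, Mki67 and Cenpe (0.924% of all genes). The median change was -0.12 (all genes: 0.00), and 44 of 49 had values below 0, the direction of lower levels in Sox1Cre controls (49.2% of all genes). Beside them, 10 of 10 cortical hem markers (median 0.16) and 7 of 8 Cajal-Retzius markers (0.26) had values above 0 and 10 of 10 erythroid markers values below 0 (-0.33), none past the threshold, and their part in the members' difference was not tested. Mki67 was lower by 0.63 on the log2 scale (interval -0.94 to -0.33), from 15404 to 16819 normalized counts in NestinCre controls and from 9039 to 12871 in Sox1Cre controls, with an adjusted p of 0.071 in limma and of 0.00631 in DESeq2. Cenpe was lower by 0.37 (interval -0.56 to -0.19; adjusted p = 0.0831 in limma and 0.0142 in DESeq2). Spc24, an NDC80 complex subunit, had a difference of -0.45 (interval -0.80 to -0.10; adjusted p = 0.328, limma), and of -0.28 without A8. Cdk1, Ccnb1, Top2a and Aspm had differences of -0.04, -0.03, -0.07 and -0.10. In 5 members, Ccna2, Cenpe, Cenpf, Ndc80 and Mki67, the Sox1Cre controls lay below the NestinCre controls without overlap, as in 2.86% of all genes. These controls also serve as the reference of their own mutants, so the position of the NestinCre controls in Mki67 enters both this difference and the loss of Sox9 in that line.

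Among 104 other genes of mitosis and 40 of S phase, few were called outside the comparison of ages. For the loss of Sox9, 0 of the 104 were called in any set by limma, and 1 of 40 S phase genes at E12.5, Rrm2, the small subunit of ribonucleotide reductase, which was lower by 0.42 (adjusted p = 0.0433, limma). That call was lost without any one of A9 or A11 to A16 (adjusted p from 0.0645 to 0.139). With age in the mutants, 17 of 104 were lower and 7 higher (12.1% and 13.8% of all genes), with the centromere gene Cenpw at -1.03, the spindle orientation gene Gpsm2 at -0.37 and Pimreg at -0.32, and with the cohesin acetyltransferase Esco2 at 0.65, Cenpp at 0.38 and Depdc1a at 0.35. Of these, Cenpp was not called without any one of A1, A4, A9, A11 or A12, Depdc1a without A1 or A9, and Pimreg without A10 or A12. With age in controls, 5 of 104 were lower and 2 higher (5.17% and 6.33% of all genes). Gpsm2 and the kinesin gene Kif14 were at -0.28 and -0.24, and Esco2 and Ckap2 at 0.37 and 0.17, while the S phase gene Pola2, a subunit of DNA polymerase alpha, was at -0.30. Each of these 5 lost its call without at least 1 library. Between the control lines, Spdl1, which links dynein to the kinetochore, was lower by 0.92, Numa1, a spindle pole gene, by 0.44 and the replication factor gene Rfc1 by 0.29 in Sox1Cre controls, with adjusted p of 0.0341, 0.0441 and 0.0328 (limma). Leaving out single libraries ended the calls of Spdl1 and Numa1 in all 8 fits and that of Rfc1 in 7.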

How the data were processed

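RNA from dissected archicortex was made into mRNA libraries and sequenced on an Illumina HiSeq. The authors trimmed reads with Trimmomatic (0.36), aligned them to GRCm38 with STAR (2.5.2a) and estimated counts with RSEM (1.2.31). The deposited signal is that count divided by a DESeq2 size factor, a normalized count per gene. The strand setting is not given in the sources used here. Whole reads were recovered from the steps between low values, except that library A3, with steps near 1, offers no such check. GENCODE M21 gave symbols and GRCm38 positions.

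The 16454 genes reaching 10 in 4 or more of the 24 libraries were fitted with limma 3.58.1 on log2(value + 1), 1 mean for each of 6 groups, with a trend and 18 residual degrees of freedom. The 8 contrasts were two-sided. Adjusted p came from the Benjamini-Hochberg method, and calls were made under 0.05. Log2 changes are on the log2(value + 1) scale. Single genes also had an exact permutation test over 35 splits. The genes to be named were Cdk1, Ccnb1, Mki67, Top2a and Aspm in each contrast, with the called members (the 5 largest in full), otherwise the 3 largest changes, up to 3 called genes per direction of the other mitosis and S phase lists, and the most abundant gene of cell type lists. Other genes were named after their values were seen. The members and lists were chosen with earlier results of these data known.

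The alternatives used pseudocounts of 0.5 and 5, looser and stricter filters on low values, fewer libraries, quantile normalization, robust eBayes, array weights, log2 Xist as covariate, edgeR 4.0.16, DESeq2 1.42.0, and 1 library fewer at a time. Tested on simulated data (loss of Sox9, Sox1Cre, E13.5; 16454 genes), limma recovered 85% of log2 changes of 1 and 52% of 0.5, with 7.43% of its calls false, against 5.48% for edgeR and 17.9% for DESeq2.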

Additional observations from a re-analysis of the deposited data

Results flagged for a closer look

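Over the 49 genes and their mean level, 300 groups of 4 libraries were examined, and in 10 of them (3.33%) 1 library lay far from the other 3. Chance alone would flag about 1 in 20 of independent groups. The genes share their libraries and correlate, so the share flagged cannot be set against that rate. Library A1 of the E13.5 Sox1Cre mutants accounted for 7 of the 10. In it, Ccna2 stood at 7350 normalized counts (5515 to 5730 in the other 3), Ccnb1 at 5422 (3938 to 4059) and Bub1 at 2318 (1774 to 1852). Kif11 stood there at 5025 (3762 to 3789), Cdc20 at 3415 (2878 to 2940) and Ube2c at 3995 (3033 to 3173). Pttg1 was lower in A1 than in the rest, at 597 (899 to 917). In the NestinCre line, Ccna2 stood at 6901 in mutant A18 (6264 to 6326), Ttk, a checkpoint kinase, at 1428 in control A23 (1110 to 1163), and Pttg1 at 635 in control A22 (962 to 1000). Securin transcripts were thus low in 2 libraries of different groups.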

How the results depend on the processing

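The number of called members depended on how libraries were weighted and on single libraries. With array weights, 2 members (Mki67 and Cenpe) were called for the loss of Sox9 in the Sox1Cre line at E13.5 (5.85% of all genes), 3 at E12.5 (3.51%), 7 and 17 with age in controls (19.7%) and mutants (33.7%), 2 between control lines (0.656%) and 2 for the difference between Cre lines (2.24%). With age in mutants, 5 were called with any value above 0 (11.9%) and 3 with the libraries of the comparison alone (13%). Between control lines, 1 was called with those libraries alone (0.201%) and 2 by DESeq2. With the Xist covariate, 0 were called with age in controls (0%). Leaving out 1 library gave 0 to 1 for the loss of Sox9 in the Sox1Cre line at E13.5 (1 without A1), 5 to 15 with age in mutants (15 without A1, 5 without A10 or A12), 1 to 6 with age in controls (6 without A5) and 0 to 1 for the difference between Cre lines (1 without A1). The median change of the members kept its sign with 1 library left out, but moved by over 1.5 times, at E12.5 (-0.125 to -0.0431, the latter without A11), between control lines (-0.1448 to -0.0651, without A8) and with age in mutants (-0.1257 without A1 to -0.0371 without A12) and controls (-0.1411 to -0.0695, without A8). It turned sign in 1 of 8 such fits for the loss of Sox9 in the Sox1Cre line at E13.5 (-0.0928 to 0.0028), in 3 of 8 in the NestinCre line (-0.055 to 0.0072), and in 5 and 3 of 16 for the differences between Cre lines (-0.0765 to 0.0298) and ages (-0.0146 to 0.0716). The causes were not tested.

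Log2 changes near 0 turned sign. With quantile normalization, Aspm (E13.5, Sox1Cre) was 0.0168, Ccnb1 (E12.5) 0.0098 and Top2a (age, controls) 0.0219. With array weights, Cdk1 was -0.0307 (age, controls) and 0.0365 (difference between Cre lines). Leaving out 1 library, Aspm (E13.5, Sox1Cre) ran from -0.0640 to 0.0532. Ccnb1 ran from -0.0259 to 0.0629 (NestinCre), from -0.0723 to 0.0159 (E12.5), from -0.0966 to 0.0123 (control lines) and from -0.1535 to 0.0208 (difference between ages). Cdk1 ran from -0.0023 to 0.0650 (E12.5), from -0.0849 to 0.0805 (age, controls), from -0.1263 to 0.0391 (control lines) and from -0.1230 to 0.0423 (difference between Cre lines). Top2a ran from -0.0562 to 0.0283 and from -0.0978 to 0.0054 (age, controls and mutants) and from -0.0834 to 0.0198 (difference between ages). Of the single genes, 118 values fell short of a threshold passed before and 15 newly passed it. No paired analysis was possible because each library has its own number. With 4 libraries per group, intervals with a median half-width of 0.16 (log2) limit what could be seen.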
